A study of Mus musculus with 16 samples.

Results

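The cytosolic ribosomal protein genes encode the protein parts of the ribosomes that translate nuclear mRNA. They were taken by symbol: Rpl or Rps and a number. At most 1 letter (a, x, y or l) and 1 digit could follow the number. Rpsa, Rplp0, Rplp1 and Rplp2 were added, and pseudogenes and the S6 kinases were left out. A gene counted where at least 1 probe set named it alone, and the probe set with the highest mean over the 16 arrays stood for it. This gave 70 genes of the 17097 named in this way, with 133 probe sets of the 45037 tested. The set holds 24 small subunit genes, 38 large subunit genes, the 3 genes of the stalk (Rplp0, Rplp1 and Rplp2) and 5 paralogues (Rpl3l, Rpl7l1, Rpl22l1, Rpl39l and Rps27l). Rpl10l, Rps27 and Rps4l were not analysed here.

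Total RNA came from the striatum, the forebrain nucleus in which antipsychotic drugs block dopamine receptors, of 16 male mice aged 7 to 8 weeks. The mice belonged to 2 inbred strains, A/J (A/JOlaHsd) and DBA/2J (DBA/2JRccHsd), and the 4 groups held 4 mice each, with 1 Affymetrix MG 430 PM array per mouse. The treated groups received risperidone, an antipsychotic, at 1 mg/kg by intraperitoneal injection once a day for 3 days. By their labels the control groups were untreated, though the treatment protocol describes saline given in the same way. The study's title asks about mTOR signalling and the motor side effects of antipsychotics.

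Each ribosome has a small subunit, which reads the mRNA, and a large subunit, which joins amino acids and carries a flexible stalk that recruits translation factors. The mRNAs of ribosomal proteins typically begin with a run of pyrimidines, the terminal oligopyrimidine or TOP motif, through which mTOR complex 1 controls how much of each mRNA is translated. Rps6, a small subunit protein, is the classic substrate of the S6 kinases that this complex activates. An array measures mRNA abundance, not translation or phosphorylation.

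The start sites of 4 genes that differed between the strains, of Rps6 and of the 5 genes lowest on 1 array described below are shown, so that the length of the pyrimidine run can be compared. Each is 15 bases before and 15 bases from the annotated start on the gene's strand, from RefSeq's annotation of GRCm38.p6, with the longest run of C and T in capitals.
Rpl14 (chr9:120571502-120571531, plus strand): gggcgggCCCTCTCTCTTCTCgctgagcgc
Rps2 (chr17:24720048-24720077, plus strand): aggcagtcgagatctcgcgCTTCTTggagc
Rplp0 (chr5:115559452-115559481, plus strand): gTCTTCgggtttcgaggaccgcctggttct
Rps15a (chr7:118116133-118116162, minus strand): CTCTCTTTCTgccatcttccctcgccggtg
Rps6 (chr4:86857353-86857382, minus strand): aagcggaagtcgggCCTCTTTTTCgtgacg
Rpl22l1 (chr3:28805493-28805522, plus strand): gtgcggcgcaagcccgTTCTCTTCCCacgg
Rps9 (chr7:3704026-3704055, plus strand): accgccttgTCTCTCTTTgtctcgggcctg
Rpl9 (chr5:65391417-65391446, minus strand): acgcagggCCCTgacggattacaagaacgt
Rpl36a (chrX:134585639-134585668, plus strand): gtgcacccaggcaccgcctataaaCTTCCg
Rpl13a (chr7:45128731-45128760, minus strand): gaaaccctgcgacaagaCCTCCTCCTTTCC

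Of the 4 strain genes, Rpl14 and Rps15a had runs of 14 and 10 bases and Rps2 and Rplp0 of 6 and 5. Of the 5 genes low on that array, Rpl13a, Rpl22l1 and Rps9 had runs of 13, 10 and 9, and Rpl36a and Rpl9 of 5 and 4; Rps6 had 10. Of the genes described below as not low there, Rpl39l had a run of 7 and Rpsa of 5. Rpl22, with 2 starts, had runs of 4 and 5, and Rps15a was among those genes too. RefSeq's table gave 67 starts for 56 of the 70 genes. A run of at least 8 pyrimidines lay in 25 of the 67 windows (37.3%), against 3943 of 32851 windows of all genes (12%). The ETS motif CCGGAAG, searched on both strands of 300 bases around each start, was found at 26 of the 67 starts (38.8%) and at 8.86% of all starts. Among the 10 genes shown, Rps2 and Rps6 carried it. These matches describe the letters only. Each run was the longest anywhere in its window, so it need not begin the mRNA. Those of Rps15a, Rplp0 and Rpl9 lie wholly before the annotated start. The runs of Rps15a and Rpl13a reach the edge of the window and may be longer.

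Levels are deposited log2 values, on which a difference of 1 is a doubling. The array medians lay between 5.66 and 5.71, and 68 of the 70 genes had a mean level above the median of all probe sets. The 9 markers of striatal projection neurons, the main neurons of the labelled tissue, averaged 6.36 to 6.99 on the 16 arrays. On 3 arrays labelled A/J risperidone, genes that separate the strains lay between them: set on a scale from 0% in A/J controls to 100% in DBA/2J controls, replicates 1, 2 and 4 stood at 27.9%, 36.2% and 39.1%, and replicate 3 at 0.584%. Differences that use the A/J risperidone group are therefore given also without those 3 arrays. That leaves 1 array in the group, so a p-value there assumes that the lone array varies like the other groups. DBA/2J risperidone replicate 1 stood at 87.6%, and the other arrays of the DBA/2J groups between 94.6% and 103%. DBA/2J control replicate 4 correlated with the other arrays at 0.97 to 0.979, and its limma array weight was 0.178 against 0.691 to 1.84 elsewhere.

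The ribosomal protein genes were low on DBA/2J control replicate 4 and within a narrow range on the other 15 arrays. Averaged over the 70 genes, the A/J control arrays had levels of 10.21, 10.21, 10.26 and 10.22, and the A/J risperidone arrays 10.23, 10.24, 10.20 and 10.26. The DBA/2J control arrays had 10.20, 10.23, 10.26 and 9.76, and the DBA/2J risperidone arrays 10.23, 10.25, 10.32 and 10.29. The other 15 arrays thus spanned 10.20 to 10.32, and replicate 4 of the DBA/2J controls lay below all of them. The group means were 10.23 ± 0.03, 10.23 ± 0.02, 10.11 ± 0.24 and 10.27 ± 0.04 (SD, n = 4) in that order, and 10.23 ± 0.03 (SD, n = 3) for the DBA/2J controls without replicate 4. In whole tissue, fewer cells of a type and less RNA per cell cannot be told apart.

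**Figure D1:**
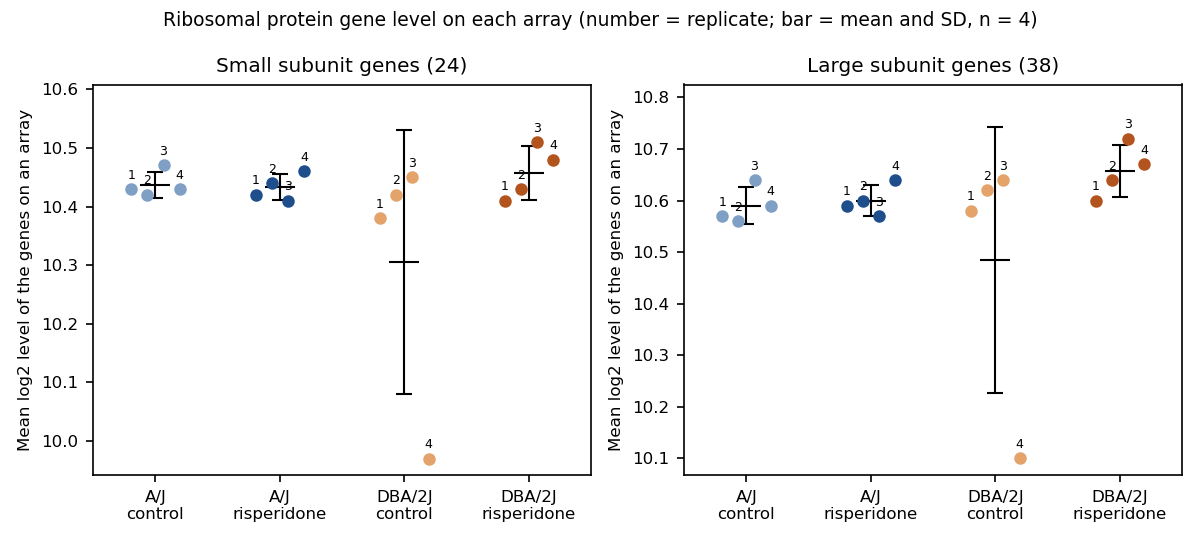
Mean log2 level of the 24 small subunit genes (left) and the 38 large subunit genes (right) on each array, by group; numbers are replicates, and bars are the mean and SD (n = 4). DBA/2J control replicate 4 lies at 9.97 and 10.10, and the other 15 arrays lie between 10.38 and 10.51 and between 10.56 and 10.72; the axes do not start at 0.

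Both subunits showed this. The small subunit genes averaged 9.97 on replicate 4 and 10.38 to 10.51 on the other 15 arrays. The large subunit genes averaged 10.10, against 10.56 to 10.72. The stalk genes averaged 9.88, against 10.33 to 10.60, and the paralogues 6.06, against 6.27 to 6.42.

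Gene by gene, replicate 4 was set against the mean of the other 3 DBA/2J control arrays. It lay below that mean for 67 of the 70 genes, with a median difference of -0.46 and a range from -1.06 to 0.29. Over all probe sets the median was 0.03, and 46.5% lay below. For 63 of the 70 genes (90%) replicate 4 was the lowest of all 16 arrays, which held for 19.7% of all probe sets. It was lower by at least 0.5 for 32 genes (45.7%), against 7.66% of all probe sets. The medians were -0.36 for the small subunit, -0.52 for the large subunit, -0.51 for the stalk and -0.28 for the paralogues.

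The deepest member was Rpl22l1, the paralogue of Rpl22. It had levels of 9.75, 9.63, 9.62 and 8.61 on the 4 DBA/2J control arrays, and between 9.56 and 9.80 on all arrays of the other groups. Rps9, a small subunit protein, had 9.24, 9.42, 9.53 and 8.35. In both genes replicate 4 was the lowest of the 16 arrays, by more than the other 15 differed among themselves. The next were Rpl9 at -0.95 and Rpl36a and Rpl13a at -0.91, all of the large subunit; Rpl13a is also known for a translation-silencing role away from the ribosome.

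Members that did not follow were few. Rpl22 had 9.48, 9.43, 9.38 and 9.47 on the DBA/2J control arrays, a difference of 0.04 for replicate 4, unlike its paralogue. Rpsa, a small subunit protein also described as a laminin receptor, had 10.63, 10.65, 10.63 and 10.75, so that replicate 4 was the highest of its group. Rpl39l, a paralogue of Rpl39 best known from testis, had 4.98, 5.01, 5.08 and 5.31, again with replicate 4 on top. Rpl39 itself had 11.42, 11.41, 11.43 and 10.86. Rpl10, which joins the large subunit late in its maturation, differed by -0.03, and Rps15a, on a dim probe set with a mean level of 6.4, by -0.04. With Rpl14 and Rpl3l, these were the 7 genes for which replicate 4 was not below the other 15 arrays. Within its group Rpl14 was low on replicate 4, with a difference of -0.44, but the A/J arrays lay lower still.

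**Figure D2:**
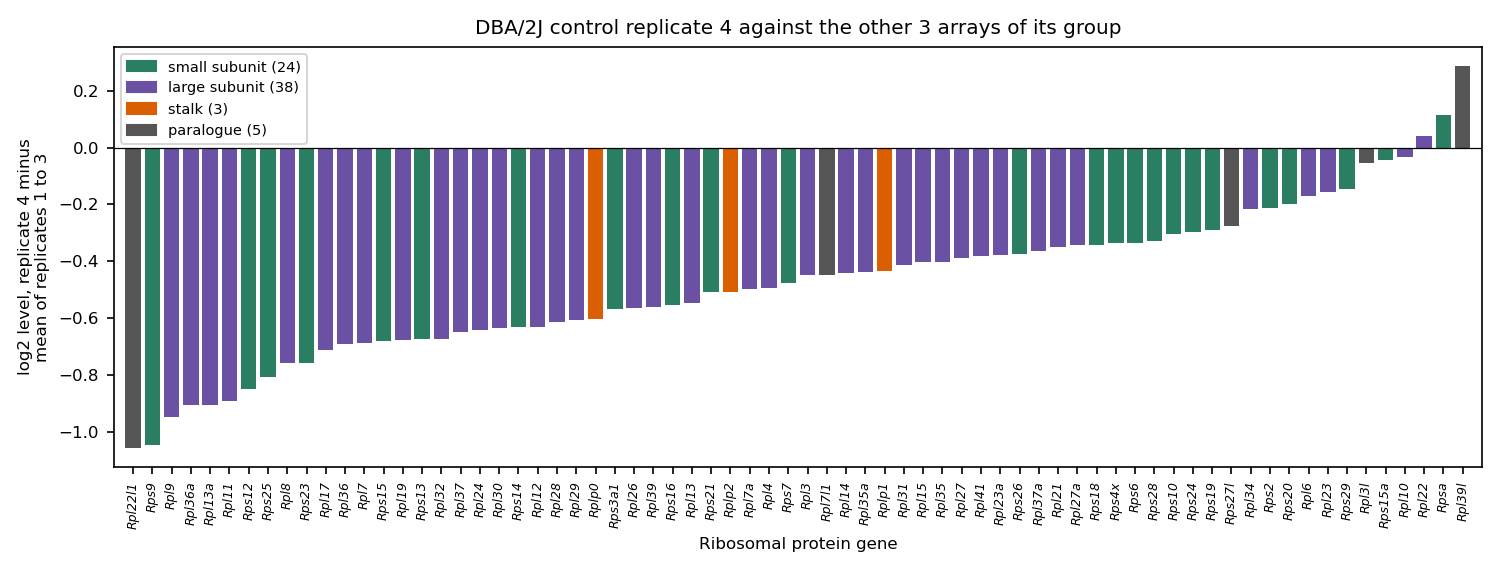
Difference in log2 level between DBA/2J control replicate 4 and the mean of replicates 1 to 3, for each of the 70 genes, ordered and coloured by subunit. Bars run from -1.06 (Rpl22l1) to 0.29 (Rpl39l), and 67 of 70 point down.

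The members are bright probe sets, and bright probe sets as a whole were slightly low on this array. Among probe sets with a mean level of 9 to 10, the median difference was -0.14 over all and -0.65 over the 14 members there. Between 10 and 11 it was -0.15 over all and -0.55 over 25 members, and between 11 and 14 it was -0.11 over all and -0.40 over 23 members. At like brightness the members thus had the lower medians. Across the 70 genes, which share the array, the difference had a Pearson r of -0.22 with the mean level.

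**Figure D3:**
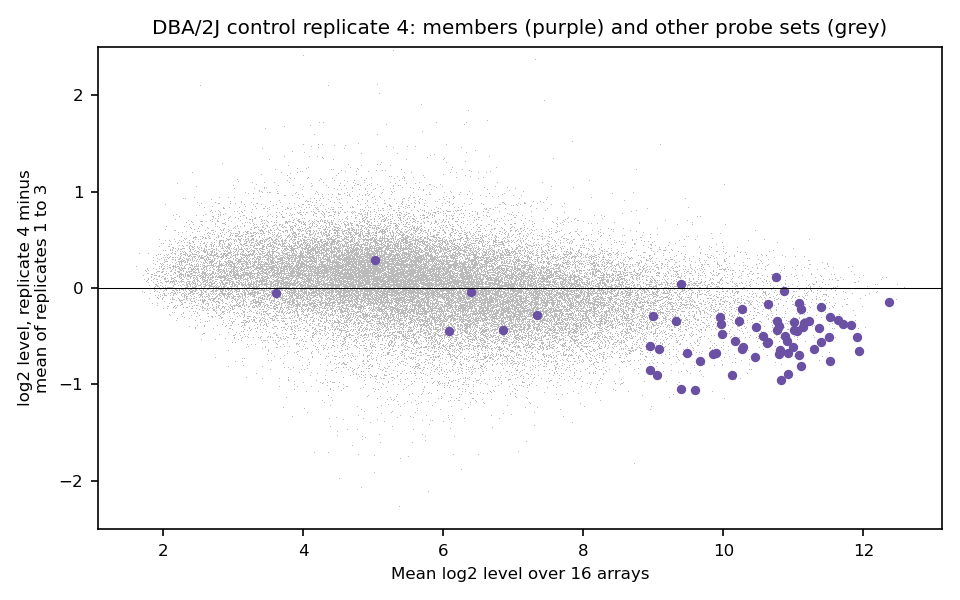
Difference in log2 level between DBA/2J control replicate 4 and the mean of replicates 1 to 3 against the mean level over 16 arrays, for the 70 ribosomal protein genes (purple) and all other probe sets (grey; 13 lie beyond the plotted range of 2.5 either way). Members with mean levels above 9 lie at or below the grey cloud's centre, apart from Rpl10, Rpl22 and Rpsa.

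Other gene lists gave their own values on the array. The 71 mitochondrial ribosomal protein genes had a median difference of -0.35, and the 83 genes of the respiratory chain and ATP synthase one of -0.43. Replicate 4 was below the other 15 arrays for 67.6% and 81.9% of these genes. It was lower than its group by at least 0.5 for 33.8% and 43.4%, shares not far from those of the cytosolic genes. The ribosomal proteins outside the symbol pattern, Fau and Rpl36al, lay at -0.56 and -0.57. For 15 other TOP mRNA genes, such as translation factors, the median was -0.08, for 34 ribosome biogenesis and RNA polymerase I genes -0.21, and for 13 genes of mTORC1 and the S6 kinases -0.23.

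Markers of cell types and array controls also moved there. The medians were -0.54 for 5 oligodendrocyte markers, -0.42 for 4 blood markers, -0.21 for 9 striatal projection neuron markers and for 4 cortex markers, and -0.09 for 5 endothelial markers. They were 0.09, 0.12, 0.15 and 0.29 for the astrocyte, microglia, choroid plexus and thalamus markers. The mean log2 level of the oligodendrocyte markers was 7.93 on replicate 4 and 8.01 to 9.39 elsewhere. That of the projection neuron markers was 6.36, against 6.52 to 6.99. That of the 6 microglia markers was 6.08, against 6.27 to 6.79, although their median difference was 0.12. Their differences ran from -1.4 to 0.75, and 2 of the 6 were negative. The 3 probe sets of BioB, a bacterial transcript spiked into the hybridisation, were at 10.11, 9.99 and 10.32, higher than the other 3 DBA/2J controls by 0.70, 0.67 and 0.71 and higher than on all other arrays. The lower quartile of the array was 4.60, against 4.46 to 4.52 elsewhere. The part of these measures in the low ribosomal protein levels was not tested.

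Risperidone was first compared with control in A/J mice, to ask whether the drug moved these mRNAs. The test throughout was limma's moderated test on all 16 arrays, with Benjamini-Hochberg adjustment across the 45037 probe sets tested and calls at an adjusted p under 0.05. None of the 70 genes was called, where 0% of all probe sets were. At an unadjusted p under 0.05 limma gave 2 genes higher and 0 lower, against 5.51% of all probe sets in either direction. The differences were higher for 35 genes and lower for 35, with a median of 0.00, as over all probe sets (0.00, with 49.8% higher).

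The genes with the smallest p in A/J were Rpl14 and Rpl3l, a striated muscle paralogue of Rpl3. Rpl14, a large subunit protein, had 6.08, 6.04, 6.25 and 6.25 in A/J controls and 6.30, 6.82, 6.33 and 6.73 after risperidone, so the groups did not overlap. Its difference was 0.39 ± 0.12 (SE, limma adjusted p = 0.617). Its 2 highest values were on replicates 2 and 4, at 36.2% and 39.1% of the strain scale, and without the 3 arrays between the strains the difference was 0.17. Rpl3l differed by 0.21 (limma adjusted p = 0.88), and by -0.01 without those arrays. Its levels of 3.38 to 3.83 lay below the lower quartile of each array (4.46 to 4.60), so these sizes are near the floor. Rpsa was lower without overlap, at 10.73, 10.73, 10.79 and 10.80 against 11.02, 10.86, 10.84 and 10.81, a difference of -0.12 (limma adjusted p = 0.952), or -0.09 without the 3 arrays. Rps14 and Rpl34 followed, at 0.18 and -0.10, or 0.02 and -0.15 without those arrays. Groups did not overlap for 1 gene higher, where 2.34% of all probe sets did so, and for 1 lower, where 2.08% did. Without the 3 arrays, 23 of the 70 genes were higher and the median was -0.03.

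In DBA/2J mice the ribosomal protein genes were mostly higher after risperidone, by an amount that shrank without control replicate 4. None was called by limma, where 0.04% of all probe sets were. At an unadjusted p under 0.05, 14 genes were higher (5.01% of all probe sets) and 0 lower. The differences were positive for 66 of 70 genes, with a median of 0.16, against -0.01 and 48.6% over all probe sets. Without replicate 4, 0 genes passed in either direction by limma, adjusted (0.02% of all probe sets) or unadjusted (8.78%). The median was then 0.04, with 54 genes higher and 16 lower, against 50.4% higher over all probe sets. All 24 small subunit genes and 37 of 38 large subunit genes had positive differences with all arrays, and 19 and 30 did without replicate 4. The striatal projection neuron markers averaged 6.52 ± 0.12 in DBA/2J controls and 6.78 ± 0.13 after risperidone (SD, n = 4). Over the same groups the choroid plexus markers averaged 4.62 ± 0.11 and 5.16 ± 0.71, the thalamus markers 6.01 ± 0.09 and 6.26 ± 0.32, the oligodendrocyte markers 8.25 ± 0.22 and 8.45 ± 0.37 and the blood markers 9.39 ± 0.34 and 9.61 ± 0.21. No marker of these lists was called by limma, and their part in these differences was not tested.

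Rplp0, which anchors the stalk's acidic proteins, had the smallest p. Its levels were 8.70, 8.83, 8.88 and 8.20 in DBA/2J controls and 8.86, 9.0, 8.98 and 8.95 after risperidone. The groups overlapped, and the lowest value was control replicate 4. The difference was 0.29 ± 0.11 (SE, limma adjusted p = 0.382), and 0.14 ± 0.08 without replicate 4 (limma adjusted p = 0.622). The other stalk genes, Rplp1 and Rplp2, differed by 0.16 and 0.20, and by 0.05 and 0.07 without it.

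Rpl36, of the large subunit, had 11.03, 11.04, 11.05 and 10.35 in controls and 11.16, 11.10, 11.21 and 11.21 after risperidone. All risperidone values lay above all controls. Its difference was 0.30 ± 0.12 (SE, limma adjusted p = 0.394) and 0.13 without replicate 4. Rps19, mutated in Diamond-Blackfan anaemia, differed by 0.20, Rpl7l1 by 0.23 and Rpl32 by 0.28, with limma adjusted p-values of 0.407, 0.423 and 0.432. Without replicate 4 these 3 differences were 0.13, 0.12 and 0.11.

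Rps6, the S6 kinase substrate, had 11.21, 11.21, 11.23 and 10.88 in controls and 11.26, 11.28, 11.36 and 11.31 after risperidone. The groups did not overlap, and the 3 control arrays other than replicate 4 lay within 0.02 of each other. The difference was 0.17 ± 0.08 (SE, limma adjusted p = 0.462), and 0.09 ± 0.06 without replicate 4 (limma adjusted p = 0.758). In A/J it was -0.05 ± 0.08 (limma adjusted p = 0.996), or -0.06 without the 3 arrays between the strains.

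Groups did not overlap, with risperidone higher, for 7 genes (Rpl3, Rpl7, Rpl10, Rpl14, Rpl35a, Rpl36 and Rps6), where 1.89% of all probe sets did so. Leaving out an array cannot make such groups overlap; without replicate 4 the count was 7, where 3.47% of all probe sets did so. No gene was lower without overlap (2.51% of all probe sets, and 4.15% without replicate 4). Rpl10, one of the genes that replicate 4 left in place, had 10.78, 10.84, 10.82 and 10.78 in controls and 10.87, 10.87, 11.06 and 10.99 after risperidone. Its difference was 0.14 with all arrays and 0.13 without replicate 4 (limma adjusted p = 0.49 and 0.641).

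The largest differences were those of Rps9, Rpl13a and Rpl36a, at 0.39, 0.32 and 0.31, which were also among the 5 genes deepest on replicate 4, an array that enters both measures. Without that array they differed by 0.13, 0.10 and 0.08. Rpl22l1 went from 0.27 to 0.0008. At the other end were Rpl39l at -0.17, Rpl3l at -0.04, Rps27l, a p53 target, at -0.02, Rpl22 at -0.01 and Rps29 at 0.01.

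**Figure D4:**
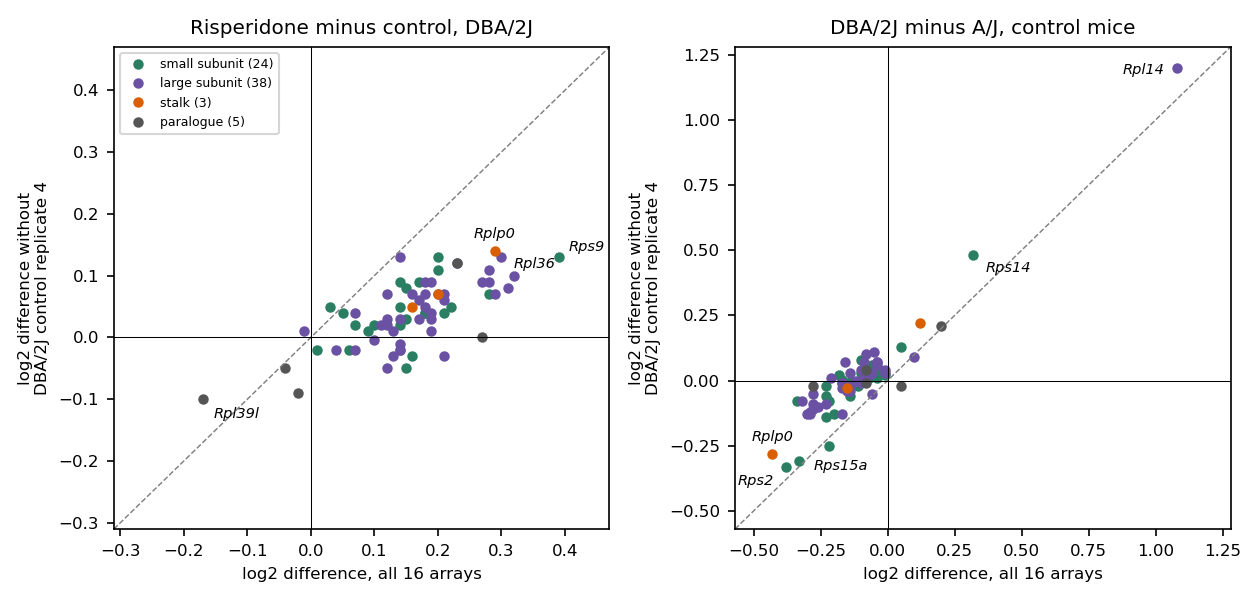
Log2 difference of each of the 70 genes with all 16 arrays (horizontal) and without DBA/2J control replicate 4 (vertical), for risperidone minus control in DBA/2J (left) and for DBA/2J minus A/J in control mice (right); the dashed line marks equal values. The median falls from 0.16 to 0.04 on the left and moves from -0.13 to -0.0025 on the right, where Rpl14 stands apart.

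In control mice the strains were compared, and 4 ribosomal protein genes differed by limma, where 3.87% of all probe sets were called. Rpl14 was higher in DBA/2J, and Rps2, Rplp0 and Rps15a were lower. With all arrays, 63 of the 70 genes had lower levels in DBA/2J, with a median of -0.13, against 0.01 and 53.2% higher over all probe sets. Without replicate 4 the genes fell 34 higher and 36 lower, with a median of -0.0025, and 4 were again called (3.63% of all probe sets). Those were Rpl14 and Rps14, higher, and Rps2 and Rplp0, lower. The oligodendrocyte markers averaged 9.02 ± 0.28 in A/J controls and 8.25 ± 0.22 in DBA/2J controls (SD, n = 4), the microglia markers 6.69 ± 0.08 and 6.24 ± 0.11, and the thalamus markers 6.65 ± 0.57 and 6.01 ± 0.09. The projection neuron markers averaged 6.74 ± 0.19 and 6.52 ± 0.12 and the choroid plexus markers 5.26 ± 0.54 and 4.62 ± 0.11. The astrocyte, endothelial, cortex and blood markers averaged 8.63, 6.45, 7.92 and 9.25 in A/J and 8.62, 6.53, 7.92 and 9.39 in DBA/2J. Of these lists, limma called 2 projection neuron, 2 oligodendrocyte, 2 microglia, 1 astrocyte and 1 thalamus markers, all lower in DBA/2J. Their part in the strain differences was not tested.

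Rpl14 had the largest strain difference. In DBA/2J its levels were 7.40, 7.26, 7.39 and 6.91 in controls and 7.50, 7.47, 7.44 and 7.45 after risperidone, all above the 8 A/J values given before. The difference in control mice was 1.08 ± 0.12 (SE, limma adjusted p = 1.8e-05), and 1.20 ± 0.11 without replicate 4 (limma adjusted p = 6.3e-06). In risperidone mice it was 0.92 ± 0.12 (SE, limma adjusted p = 0.000464), and 1.14 without the 3 A/J arrays between the strains, against 1 A/J array (limma adjusted p = 0.00336). Rpl14 was called in each of the 26 alternatives run for both strain comparisons, 2 of which leave that 1 A/J risperidone array. It has 1 probe set, so no other probe set of the gene could be set beside it. That probe set was dim, at a mean level of 6.85, where the other large subunit genes averaged 9.06 or more. Whether it follows the gene's mRNA was not tested.

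Rps2, at the site where mRNA enters the small subunit, had 11.21, 11.27, 11.30 and 11.30 in A/J controls and 10.89, 10.99, 10.95 and 10.73 in DBA/2J controls. The groups did not overlap, and the difference was -0.38 ± 0.07 (SE, limma adjusted p = 0.00501), or -0.33 without replicate 4 (limma adjusted p = 0.00846). Its other 2 probe sets were called too, at -0.67 and -0.35. After risperidone the levels were 11.21, 11.21, 11.36 and 11.23 in A/J and 11.03, 10.99, 11.05 and 11.06 in DBA/2J, again with no overlap. That difference was -0.22 ± 0.07 and was not called (limma adjusted p = 0.274), nor was it at -0.33 without the 3 A/J arrays (limma adjusted p = 0.592).

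Rplp0 had 9.01, 9.17, 9.15 and 9.02 in A/J controls, all above the DBA/2J controls given before. The difference was -0.43 ± 0.11 (SE, limma adjusted p = 0.0379), and -0.28 ± 0.08 without replicate 4 (limma adjusted p = 0.0459). The call was lost in 11 of 26 alternatives, among them leaving out any 1 A/J control array, DBA/2J control replicate 1, or replicate 1, 2 or 4 of A/J risperidone, with limma adjusted p-values up to 0.171 over all alternatives. In risperidone mice, where A/J had 9.08, 9.04, 9.21 and 9.06, the strains again did not overlap, with a difference of -0.15 (limma adjusted p = 0.757), or -0.26 without the 3 A/J arrays (limma adjusted p = 0.999).

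Rps15a, a small subunit protein, has 1 probe set, dim at a mean level of 6.4. The other small subunit genes averaged 8.95 or more. Whether this probe set follows the gene's mRNA was not tested. Its levels were 6.53, 6.56, 6.64 and 6.54 in A/J controls and 6.34, 6.25, 6.17 and 6.21 in DBA/2J controls, with no overlap. The difference was -0.33 ± 0.09 (SE, limma adjusted p = 0.0451) and was not called without replicate 4, at -0.31 (limma adjusted p = 0.0746). The call was lost in 16 of 26 alternatives, with limma adjusted p-values up to 0.131 over all of them. These included leaving out any 1 A/J control array, DBA/2J control replicate 2, 3 or 4, DBA/2J risperidone replicate 2 or 3, or replicate 1, 2 or 4 of A/J risperidone. After risperidone the levels were 6.51, 6.45, 6.65 and 6.43 in A/J and 6.05, 6.30, 6.33 and 6.48 in DBA/2J, and the groups overlapped. The difference was -0.22, or -0.36 without the 3 A/J arrays (limma adjusted p = 0.412 and 0.652).

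Rps14, a protein of the small subunit's platform, had 10.02, 10.06, 10.03 and 9.98 in A/J controls and 10.33, 10.55, 10.62 and 9.87 in DBA/2J controls. Replicate 4 was below all A/J controls and the other 3 were above them. With all arrays kept, Rps14 was not called in the main fit but was with array weights, which gave replicate 4 a weight of 0.178. The difference was 0.32 ± 0.13 (SE, limma adjusted p = 0.197) with all arrays and 0.48 ± 0.10 without replicate 4 (limma adjusted p = 0.00848). After risperidone it was 0.27 (limma adjusted p = 0.522), or 0.44 without the 3 A/J arrays (limma adjusted p = 0.822).

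**Figure D5:**
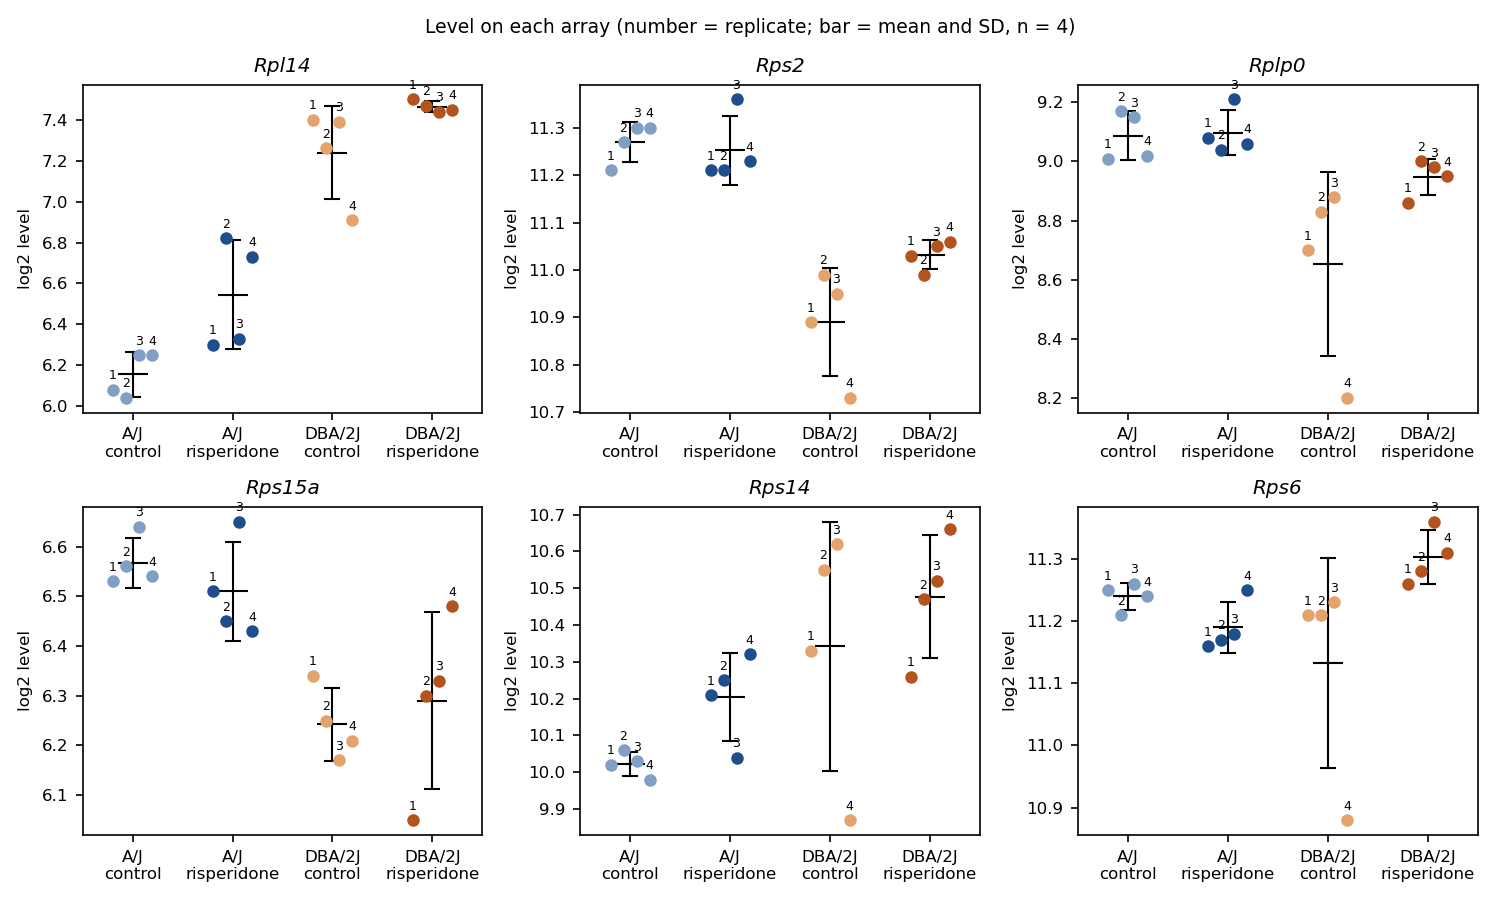
Log2 level on each array of Rpl14, Rps2, Rplp0, Rps15a, Rps14 and Rps6, by group; numbers are replicates, and bars are the mean and SD (n = 4). Rpl14 lies between 6.04 and 6.82 on the A/J arrays and between 6.91 and 7.50 on the DBA/2J arrays; the axes differ between genes and do not start at 0.

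Over all 70 genes, 10 were lower in DBA/2J controls without overlap (Rpl6, Rpl12, Rpl32, Rpl36, Rpl39, Rplp0, Rps2, Rps15a, Rps19 and Rpsa), where 4.42% of all probe sets did so. Without replicate 4, which can only add to such a count, there were 10, where 6.5% of all probe sets did so. Rpsa differed by -0.22 ± 0.07 (SE, limma adjusted p = 0.116). Higher without overlap were 2 genes, Rpl14 and Rpl3l (4.91% of all probe sets). Without replicate 4 there were 7 (7.61%), when Rpl30, Rpl35a, Rplp1, Rps14 and Rps23 joined them. All Rpl3l values lay below the lower quartile of their array.

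Probe sets of 1 gene did not always move together. Of the 133 probe sets, 8 were called in control mice, for 6 genes, where 3.87% of all probe sets were called. Rpl15 was called through a probe set with 9.0, 9.09, 9.16 and 9.04 in A/J controls and 9.84, 9.73, 9.89 and 9.27 in DBA/2J controls, a difference of 0.61 (limma adjusted p = 0.00348). The brighter probe set that stood for Rpl15 differed by -0.04 (limma adjusted p = 0.848). Rpl17 was likewise called through a dimmer probe set, at 0.86 (limma adjusted p = 0.00462), while its brightest differed by -0.08. These probe sets were picked after their values were seen, and which of them follows the gene's mRNA was not tested. Ribosomal protein genes have many processed pseudogenes, and binding of the probes to such copies was not tested either.

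After risperidone, the strains differed in 1 of the 70 genes, Rpl14, where 0.782% of all probe sets were called (1.2% without replicate 4, which this comparison uses only through the shared spread). The median was 0.04, with 44 genes higher and 25 lower in DBA/2J, against 0.01 and 51.3% higher over all probe sets. Without the 3 A/J arrays between the strains it was 0.07, with 49 higher. Higher without overlap were 7 genes (Rpl10, Rpl14, Rplp1, Rps6, Rps12, Rps18 and Rps21; 4.15% of all probe sets), and lower were Rplp0 and Rps2 (3.53%). Rps6 differed by 0.11 ± 0.08 (SE, limma adjusted p = 0.73) and Rps18 by 0.19 (limma adjusted p = 0.508), or by 0.12 and 0.23 without the 3 A/J arrays. Of the 133 probe sets 3 were called (0.782% of all), and those besides Rpl14 did not stand for their gene. The Rpl17 probe set differed by 0.80 (limma adjusted p = 0.0254), or 1.37 without the 3 A/J arrays (limma adjusted p = 0.00643), while the brightest one differed by 0.0025. The Rpsa probe set lay at 3.53 to 4.42, below the lower quartile of each array (4.46 to 4.60), so no size is given, and without the 3 A/J arrays it was not called (limma adjusted p = 0.123).

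The strain difference in the drug effect was then tested directly, by subtracting the effect in A/J from that in DBA/2J. No ribosomal protein gene was called by limma (0% of all probe sets). At an unadjusted p under 0.05 there were 3 higher and 0 lower, against 9.19% of all probe sets in either direction. The median was 0.15, with 65 of 70 genes positive, against -0.01 and 48.6% over all probe sets. Without DBA/2J control replicate 4 it was 0.04 with 48 positive, and without the 3 A/J arrays 0.18 with 65 positive. The smallest p-values were those of Rps19 at 0.28, Rps26 at 0.28, Rpl7 at 0.37, Rpl36 at 0.35 and Rps6 at 0.22, with limma adjusted p from 0.506 to 0.562. Without replicate 4 these differences were 0.21, 0.19, 0.20, 0.18 and 0.14, and without the 3 A/J arrays 0.34, 0.33, 0.36, 0.46 and 0.23. The comparisons share groups, so they are not independent of each other.

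Genes that work with the ribosomal proteins were counted in the same way. None of the 15 other TOP mRNA genes, of the 13 mTORC1 and S6 kinase genes, or of Fau and Rpl36al was called by limma in the 5 comparisons, with or without replicate 4. At an unadjusted p under 0.05 in DBA/2J after risperidone, 2 TOP genes were higher and 0 lower, 2 biogenesis genes higher and 1 lower, and 1 mTORC1 or S6 kinase gene higher and 1 lower, where 10.7% of all probe sets passed in either direction. Of the 34 biogenesis genes 1 was called in control mice, where 3.87% of all probe sets were. Rrs1, an assembly factor of the large subunit, was lower in DBA/2J controls, with a difference of -0.71 ± 0.13 (SE, limma adjusted p = 0.00256), and of -0.63 without replicate 4 (limma adjusted p = 0.00903). In DBA/2J after risperidone the medians were 0.10 for the TOP genes, 0.06 for the biogenesis genes and 0.0025 for the mTORC1 and S6 kinase genes. Without replicate 4 they were 0.02, 0.02 and -0.02. The mitochondrial ribosomal proteins had a median of 0.12 and the respiratory chain genes one of 0.14, or 0.05 and 0.03 without replicate 4.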

How the data were processed

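Total RNA from the striatum of 16 mice was measured on 1 array each. The deposited table holds log2 values per probe set; RMA is named in the submitters' processing notes, with version, annotation and build not given in the sources used here. All 16 columns belonged to the samples, and 0 were identical. The 104 array controls among the 45141 probe sets were not tested; of the rest, 28898 named 1 gene, 551 several and 15588 none. Gene names came from GEO's platform annotation; all 70 members matched GRCm38.p6 by Entrez ID.

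The 4 group means were fitted to all 16 arrays with limma 3.58.1 in R 4.3.3 (lmFit and eBayes, no filter, two-sided), and the fit was tested on simulated data. The number of arrays limits the precision. The members and lists were chosen with earlier results of these data known. Named with values are members called, the 5 with the smallest p in each comparison, the 5 highest and 5 lowest differences in DBA/2J, the 5 lowest and 5 highest on DBA/2J control replicate 4, and a list with known roles. Strain positions are medians over 46 to 49 probe sets that differed strongly between control groups and were no members. Alternatives were a second quantile normalization, centring each array on its median, dropping probe sets below the median level, averaging the probe sets of a gene, eBayes trend and robust options, array weights, a replicate block, only the arrays compared, and leaving out arrays. Leaving out the 3 A/J risperidone arrays, alone and with DBA/2J control replicate 4, was chosen after seeing the data. Figures were drawn with matplotlib 3.10.9.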

Additional observations from a re-analysis of the deposited data

Results flagged for a closer look

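Within a group of 4 arrays, 1 array stood far from the other 3 by Dixon's test for 34 of the 70 ribosomal protein genes in DBA/2J controls, and in 33 of them replicate 4 was the lowest. Over all probe sets 9.19% were so marked in that group. The numbers were 1 gene in A/J controls, 8 in A/J risperidone, where replicate 3 was the lowest in 5, and 2 in DBA/2J risperidone, against 5.5%, 5.78% and 5.64% of all probe sets. Chance marks about 5% of groups.

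On DBA/2J control replicate 4 the mean levels of all members (9.76), the small subunit (9.97), the large subunit (10.10) and the paralogues (6.06) stood below the other 3 arrays in this way. So did genes described above, among them Rpl22l1 at 8.61, Rpl9 at 9.89, Rpl36a at 9.25, Rpl34 at 10.12 and Rpl36 at 10.35. Rpl7 at 9.16, Rpl7l1 at 5.64 and Rps6 at 10.88 did too, as did other genes not listed here. Rpsa at 10.75 stood above the other 3 arrays, as did the BioB controls at 10.11, 9.99 and 10.32.

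In the A/J groups, the mean of the stalk genes was low on control replicate 1, at 10.33. On risperidone replicate 3, the array at 0.584% of the strain scale, Rpl3l was low at 3.46 and Rps2 high at 11.36. The Rpl3l values lay below the lower quartile of every array.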

How the results depend on the processing

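The counts of called genes for risperidone in A/J, risperidone in DBA/2J and the strains after risperidone were the same in 26 of 26 alternatives, and that for the strain difference in effect in 25 of 25. The count of 4 for the strains in control mice was 1 with only the arrays compared, 2 without the 3 A/J risperidone arrays, and 2 to 4 when each array was left out; it was 2 (Rpl14 and Rps2) without any 1 A/J control array or without A/J risperidone replicate 1, 2 or 4. With eBayes trend and robust options the count was 5, with Rpsa added, and with array weights it was 5, with Rps14 added. The median for the strains in control mice ranged from -0.17 to -0.0025 over left-out arrays. It was -0.0025 without DBA/2J control replicate 4, also with the 3 A/J arrays left out. The levels of Rpl3l lay below the lower quartile of every array. Its difference after risperidone in A/J reversed to -0.01 without the 3 A/J arrays, alone or with DBA/2J control replicate 4. The cause was not tested. Over 25 results for named genes, 613 of 644 values kept their direction and side of the threshold, 28 were no longer called, and Rpsa in control mice was called with trend and robust options (limma adjusted p = 0.0366).

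Same-numbered arrays of 2 groups correlated over 0.1 in at most 2 of 4 pairs. Their mean correlation was 0.0255 to 0.0745 by comparison, against -0.0247 to -0.00801 for arrays with other numbers. These values do not settle whether the numbers pair the mice, and the main fit did not use the numbers. With the replicate block, 3 genes (Rpl14, Rplp0 and Rps2) were called in control mice, and in each comparison 2 to 6 of 8 arrays were closest to the array that shared their number. Rpl3l had no value under the filter at the median level. For the strain difference in effect, only the arrays compared is the fit reported.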
